A study of Mus musculus with 11 samples.

Results

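The major histocompatibility complex of the mouse lies on chromosome 17, and it was followed here as the stretch from 33.5 to 37.8 Mb of that chromosome (mm9, chr17:33500001-37800000), 4.3 Mb in all. Its members were chosen by position: 43 windows of 100 kb, of 24731 such windows on the 19 autosomes. The stretch itself was picked from measured values, for the high share of contacts with other chromosomes at 35.5 to 36.4 Mb, so that share is described below with no test for the windows that gave it. The 5 genes named for the region were H2-K1, H2-Ab1, Tnf, Lta and H2-D1. H2-K1 was placed near 34.0 Mb, H2-Ab1 near 34.4 Mb and H2-D1 near 35.4 Mb. Tnf and Lta fell in the window from 35.3 to 35.4 Mb. These placements were given with the definition of the region, since no mm9 gene annotation was used here, and they are approximate. H2-D1 was thus placed at a border of windows, and the window from 35.4 to 35.5 Mb was taken for it here. The GRCm38.p6 positions given below, from another build, match the placement of H2-K1 but not that of H2-D1. The mm9 placement of H2-K1 is therefore the less certain.

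The complex holds the genes through which cells show peptides to T cells. Class I genes such as H2-K1 and H2-D1 encode the heavy chains that present peptides from inside the cell to CD8 T cells, and class II genes such as H2-Ab1 encode chains that present peptides taken up from outside to CD4 T cells. Between these lies the class III stretch, a dense run of complement, heat shock and other genes, with the cytokine genes Tnf (tumour necrosis factor) and Lta (lymphotoxin alpha) side by side at its far end. Beyond H2-D1 follow the H2-Q and H2-T genes, class I relatives that include non-classical presenting molecules. In T cells the classical class I genes are widely expressed, and Th1 cells are known as producers of tumour necrosis factor and lymphotoxin. Mouse T cells as a rule do not express class II genes.

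The contacts came from Hi-C, a method that ligates DNA ends lying close together in fixed nuclei and reads each joined pair. All maps were made from CD4+ Th1 cells taken from spleens of male C57BL/6 mice, stimulated with anti-CD3, purified with anti-CD4 beads and expanded with IL-2. There were 9 single cells cut with Bgl II (cells 1 to 7, 9 and 10), 1 single cell cut with Dpn II (cell 8), 1 ensemble map from a population cut with Bgl II, and a pooled single-cell map that does not name its cells. The labels do not say whether the cells came from separate mice or cultures, so a p-value over cells measures only the spread between these cells. The pool held the contacts of the 9 Bgl II cells, and these were removed from it where it is called the remaining pool, because the cells would otherwise count on both sides of a comparison. The remaining pool kept 2119836 of the 2294791 contacts of the pool. These come from cells that are not among those listed, and their number is not given.

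The region was followed in 6 blocks: a proximal flank (33.5 to 33.9 Mb), the H2-K1 and class II block (33.9 to 34.6 Mb), the class III stretch (34.6 to 35.3 Mb), the block of Tnf, Lta and H2-D1 (35.3 to 35.5 Mb), the Q and T block (35.5 to 36.4 Mb) and a distal flank (36.4 to 37.8 Mb). In the order of RefSeq genes on GRCm38.p6, 15 protein-coding genes lay between H2-K1 and H2-Ab1, 60 between H2-Ab1 and Tnf, 0 between Tnf and Lta, and 3 between Lta and H2-D1. The same order held 8 H2-Q and 6 H2-T genes beyond H2-D1, then 12 H2-M genes, with 16 olfactory receptor genes between H2-M5 and H2-M2. Tnf and Lta share a window, so the maps do not separate them here.

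Some of the class I genes are near copies of one another, which bears on how well reads can be placed among them. The sequences below are the 250 bases before the start site of H2-K1 (chr17:34000348-34000597 on the minus strand), H2-D1 (chr17:35262844-35263093 on the plus strand), H2-Q6 (chr17:35424600-35424849 on the plus strand) and H2-Q7 (chr17:35438905-35439154 on the plus strand), from RefSeq on GRCm38.p6, which is not the build of the contact maps. Each is written 5′ to 3′ along its gene. Capitals mark the longest run that H2-K1 and H2-D1 share letter for letter, and the longest that H2-Q6 and H2-Q7 share. They are shown because H2-K1 and H2-D1 stand at the 2 sides of the class II and class III stretch, while H2-Q6 and H2-Q7 stand in the block with the highest trans share in the cells.
H2-K1: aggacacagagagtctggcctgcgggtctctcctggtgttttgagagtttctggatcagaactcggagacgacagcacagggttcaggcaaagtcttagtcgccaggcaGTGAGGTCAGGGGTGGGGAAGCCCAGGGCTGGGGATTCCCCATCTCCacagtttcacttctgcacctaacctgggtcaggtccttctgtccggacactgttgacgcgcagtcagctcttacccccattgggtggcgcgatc
H2-D1: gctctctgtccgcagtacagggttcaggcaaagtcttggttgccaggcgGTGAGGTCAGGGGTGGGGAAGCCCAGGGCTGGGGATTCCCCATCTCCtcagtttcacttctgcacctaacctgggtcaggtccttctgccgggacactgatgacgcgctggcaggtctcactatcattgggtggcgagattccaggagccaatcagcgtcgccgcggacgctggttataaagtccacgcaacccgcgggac
H2-Q6: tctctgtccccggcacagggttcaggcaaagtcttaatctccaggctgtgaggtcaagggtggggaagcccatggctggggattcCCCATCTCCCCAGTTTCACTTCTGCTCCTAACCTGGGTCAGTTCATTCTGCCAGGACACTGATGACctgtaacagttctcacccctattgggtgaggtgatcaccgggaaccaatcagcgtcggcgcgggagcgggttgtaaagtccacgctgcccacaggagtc
H2-Q7: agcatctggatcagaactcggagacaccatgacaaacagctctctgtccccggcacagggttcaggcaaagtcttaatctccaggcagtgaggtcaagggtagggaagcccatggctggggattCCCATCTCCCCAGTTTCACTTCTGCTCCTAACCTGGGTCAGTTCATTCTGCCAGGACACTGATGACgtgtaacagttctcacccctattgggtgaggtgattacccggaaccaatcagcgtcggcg
The run shared by H2-K1 and H2-D1 was 47 bases long, and that shared by H2-Q6 and H2-Q7 was 66 bases long. Over their aligned overlap, without unpaired ends, the H2-K1 and H2-D1 sequences were identical at 166 of 190 positions (87.4%). H2-Q6 and H2-Q7 were identical at 205 of 211 positions (97.2%). H2-D1 and H2-Q6 were identical at 207 of 249 positions (83.1%). Not every gene of the family was this close: H2-D1 and H2-Q2 were identical at 146 of 253 positions (57.7%), and H2-K1 and H2-T22 at 86 of 152 (56.6%). The 4 sequences shown are therefore among the more alike of the family.

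Contact ends can be seen only at fragment ends, taken here as the distinct positions at which the ensemble map had a contact. A window of the autosomes held a median of 56 of them. Across the region the windows held 25 to 92, with 1 exception: the window from 35.5 to 35.6 Mb, the first of the Q and T block, held 4, which placed it at the 0.47th percentile of autosomal windows. That window had 319 contact ends in the ensemble, 7 in the remaining pool and 2 in the 10 cells. It was left out of the window profile, where 10 fragment ends were required, but its contact ends were kept in the sums over the block. Reads from near-identical sequence are often discarded when reads are placed, and whether this lowered the number here was not tested, because the read filters are not given in any source used here.

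Per fragment end, the distal flank was low in the ensemble and not in the remaining pool. In the ensemble, by contact ends per fragment end, the windows of the H2-K1 and class II block had 110.5 to 138.8, those of the class III stretch had 99.4 or more, and the 8 windows kept of the Q and T block 90.8 to 136.2. The windows of the distal flank had 40.3 to 109.2, with a median of 68.4. In the pool without the listed cells the distal flank was not low, with a median of 2.96 against 2.91 in the H2-K1 and class II block. The window taken for H2-D1 had the fewest contact ends per fragment end of the blocks from the proximal flank to Q and T, 76.0 in the ensemble. The window of Tnf and Lta, on the other side of the placement of H2-D1, had 125.9.

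**Figure D1:**
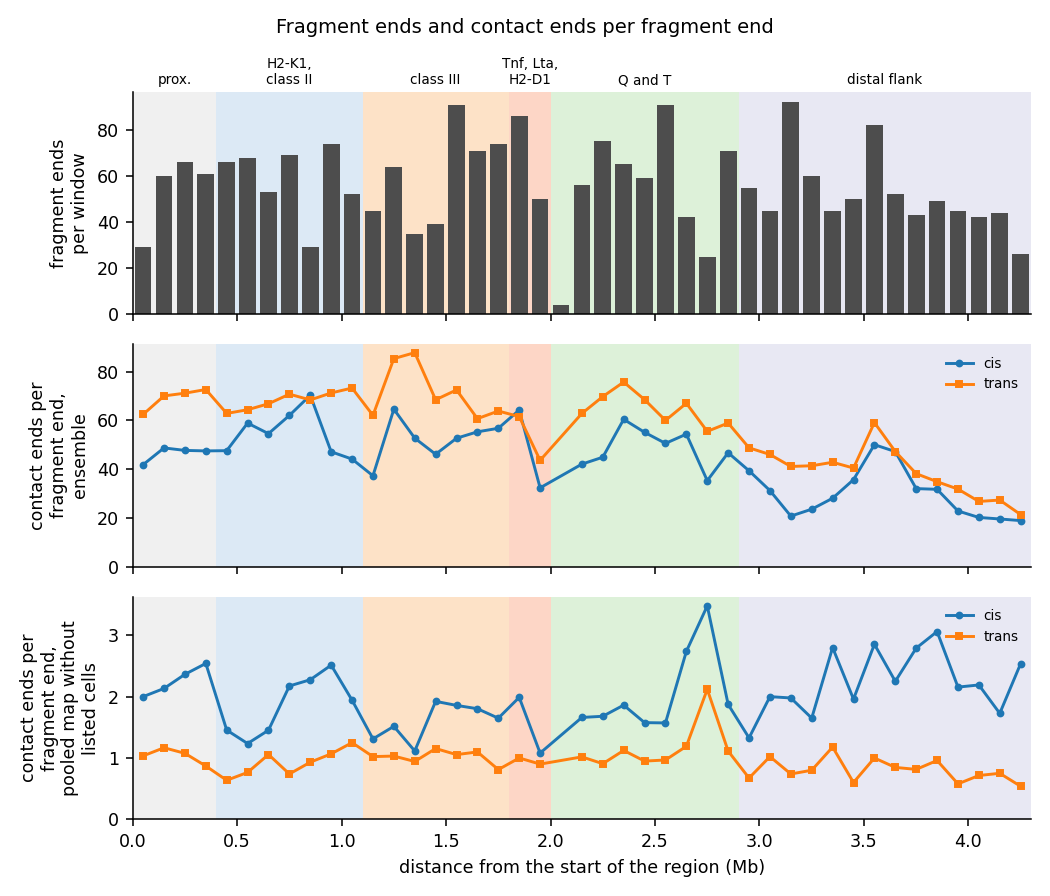
Fragment ends in each of the 43 windows (top, bars) and cis and trans ends per fragment end in the ensemble (middle) and the pooled map without the 9 listed cells (bottom), against distance from the start of the region in Mb, with blocks shaded. One window, at the start of the Q and T block, holds 4 fragment ends and has no point in the lower panels. In the ensemble the distal flank is lower than the other blocks (median 68.4 contact ends per fragment end), while in the pooled map it is not.

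The trans share is the percentage of contact ends whose partner lies on another chromosome. In the Q and T block, the stretch for which the region was picked, it was 44.5% in the 10 cells summed (49 of 110 ends, 95% Wilson interval 35.6 to 53.9). It was 36.5% in the remaining pool (526 of 1442 ends, 34.0 to 39.0) and 56.8% in the ensemble (31741 of 55890 ends, 56.4 to 57.2). These intervals cover counting error only. By cell it was 50% in cell 1, 72.7% in cell 2, 46.7% in cell 3, 31.2% in cell 4, 33.3% in cell 5, 60.0% in cell 6, 14.3% in cell 7, 58.3% in cell 8, 40.0% in cell 9 and 60.0% in cell 10. Each of these rested on 5 to 18 contact ends. Cell 2 was the highest and cell 7 the lowest, and cells 4 and 7 lay below their own value for the rest of chromosome 17 in class 1 (defined below), 38.5% and 20.2%. Autosomal stretches of as many windows had median trans shares of 17.7% (10 cells), 19.4% (remaining pool) and 50.5% (ensemble). Among them the Q and T block lay at the 99.9th, 99.6th and 93.0th percentiles. As the region was picked for this share, these ranks are a description only.

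At the edges of the stretch, the innermost windows had 57.1% (4 of 7 ends, 35.6 to 35.7 Mb) and 36.4% (4 of 11 ends, 36.3 to 36.4 Mb) in the 10 cells. The windows just outside had 22.2% (2 of 9 ends, the window taken for H2-D1) and 33.3% (5 of 15 ends, 36.4 to 36.5 Mb).

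The cells and the remaining pool differed in which block had the highest share. Without the listed cells, the class III stretch of the pool had 38.1% (35.3 to 41.0), the block of Tnf, Lta and H2-D1 36.8% (32.0 to 41.9) and the Q and T block 36.5%, with overlapping intervals. The H2-K1 and class II block had 32.9% (30.2 to 35.7), the proximal flank 31.1% (27.8 to 34.5) and the distal flank 26.8% (25 to 28.7). Among all stretches of the same number of windows on the autosomes, the class III stretch lay at the 99.8th percentile and the Q and T block at the 99.6th percentile in the remaining pool. The distal flank lay at the 89.5th percentile. In the 10 cells the class III stretch had 36.3%, the H2-K1 and class II block 32.7% and the block of Tnf, Lta and H2-D1 27.6%, on 102, 113 and 29 contact ends.

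In the ensemble the order was different again, and the blocks were closer together. The proximal flank had 59.8%, the class III stretch 57.0%, the distal flank 56.9%, the Q and T block 56.8%, the H2-K1 and class II block 55.9%, and the block of Tnf, Lta and H2-D1 51.1%. Among same-length stretches the proximal flank lay at the 97.8th percentile, the distal flank at the 94.1st and the class III stretch at the 93.4th. The Q and T block lay at the 93.0th, the H2-K1 and class II block at the 89.8th and the block of Tnf, Lta and H2-D1 at the 55.3rd. The window of Tnf and Lta had 48.9%, the lowest of the 42 windows, and lay at the 38.3rd percentile of autosomal windows. That same window had, in the remaining pool, 33.5%, at the 96.9th percentile. The window taken for H2-D1, which was placed at the border of these windows, had 57.4% in the ensemble and 45.5% in the remaining pool. The 2 windows that meet near the placement of H2-Ab1 had 49.3% and 60.2% in the ensemble and 29% and 29.8% in the remaining pool.

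Counted by windows, a trans share of at least 1.2 times the autosomal median was reached by 7 of the region's 42 windows in the ensemble, where 2.21% of all autosomal windows reached it. It was reached by 39 of 42 in the remaining pool, where 27.9% of all did. For the Q and T block these counts were 2 of 8 and 8 of 8. Neighbouring windows are not independent, and trans share chose the region, so nothing is read from these counts.

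**Figure D2:**
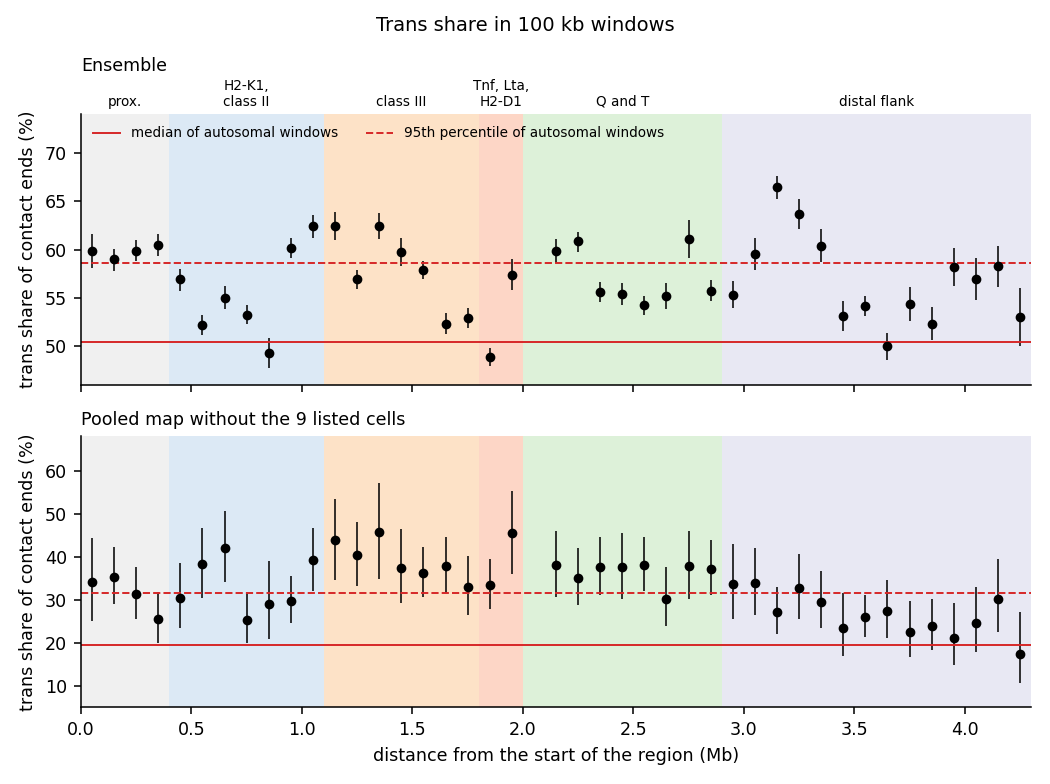
Trans share of contact ends (%) in the 42 windows with at least 10 fragment ends, against distance from the start of the region in Mb, in the ensemble (top) and the pooled map without the 9 listed cells (bottom). Points are windows with 95% Wilson intervals, shading marks the blocks, and red lines give the median and 95th percentile of autosomal windows. In the pooled map most windows from the class III stretch to the Q and T block lie above the 95th percentile line, and in the ensemble the highest windows (66.4% and 63.7%) lie in the distal flank.

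A share can be high because trans contacts are many or because cis contacts are few. Set against the class 1 part of chromosome 17 outside the region, the Q and T block had 0.603 times the cis ends and 1.46 times the trans ends per fragment end in the 10 cells. The remaining pool gave 0.841 times the cis ends and 1.17 times the trans ends, and in the ensemble 0.959 and 1.03 times. The class III stretch of the remaining pool had 0.736 times the cis ends and 1.10 times the trans ends. Both shifts ran the same way in the 3 maps for the Q and T block, and they were smallest in the ensemble. Both are parts of the trans share for which the block was picked, so their shared direction is a description only. In the distal flank of the ensemble cis and trans ends were both low, 0.602 and 0.651 times.

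Compartment classes came from the balanced ensemble map, by whether a bin's first eigenvector value was positive or negative, with class 1 the class richer in fragment ends. In 1 Mb bins, the bins from 33 to 37 Mb were class 1 and that from 37 to 38 Mb was class 2. The bin from 36 to 37 Mb had a low value, 0.047, beside 0.126 to 0.131 in the 3 bins before it, and without balancing it fell in class 2. On chromosome 17, 30 of 92 bins were class 1. In 100 kb windows, every window kept from 33.5 to 36.4 Mb had a positive value, H2-K1, H2-Ab1, Tnf, Lta and H2-D1 included, and the window of Tnf and Lta had the highest of the region, 0.066. Of the 14 windows of the distal flank 4 were positive. In all 32 of 42 windows were positive, where 34.7% of the windows of chromosome 17 were. The sign first turned at 36.5 Mb, just beyond the T genes.

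Insulation, the log2 ratio of contacts across a point to the chromosome's mean, had 6 minima in the region in the ensemble, at 34.00, 34.95, 35.50, 36.40, 36.95 and 37.40 Mb. The remaining pool, with far fewer contacts, had 18 minima. The nearest of them lay within 50 kb of 5 of the 6, and at the same 50 kb point for 34.95, 35.50 and 36.40 Mb. A map with that many minima has one near most points.

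The borders at both ends of the Q and T block were crossed by a small share of the contacts around them, but so were other points in and beyond the block. Crossing was counted among contacts with both ends within 500 kb of a border and at least 20 kb apart. In the ensemble 14.1% crossed 35.5 Mb, between H2-D1 and the Q genes (95% interval 13.2 to 15), against 31.9% over all chromosome 17 points. That placed it at the 2.80th percentile. The insulation value there, which is set against the chromosome and not against the contacts on each side, was above the mean in the ensemble, 0.06 (68.2nd percentile), and below it in the remaining pool, -0.90 (7.81st percentile). At 36.4 Mb it was low in both, -0.85 and -1.02. In the remaining pool 7.73% of contacts crossed 35.5 Mb (4.88 to 12), against 25.8% over all chromosome 17 points. At 36.4 Mb, beyond the T genes, 15.2% crossed in the ensemble (13.8 to 16.8) and 9.82% in the remaining pool (6.13 to 15.4). At 34.0 Mb, in the H2-K1 and class II block, the shares were 21.1% and 14.1%, and at 34.1 Mb 27.4% and 14.9%. The placement of H2-K1 is too approximate to say which of these borders is nearer to it. The border at 35.5 Mb adjoins the window with 4 fragment ends, which can hold few contacts on 1 side, and its part in the low crossing was not tested. The border at 36.4 Mb lies between windows with 71 and 55 fragment ends. Low crossing was not particular to these ends. Inside the block, the ensemble had 14.4% at 35.6 Mb and 16.1% at 36.2 Mb, and the remaining pool 7.51% and 10.8%. In the distal flank the ensemble had 16.4% at 37.4 Mb. Nearby borders share contacts. In the 10 cells 2 contacts crossed 35.5 Mb and 11 did not, and 0 crossed 36.4 Mb and 12 did not.

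**Figure D3:**
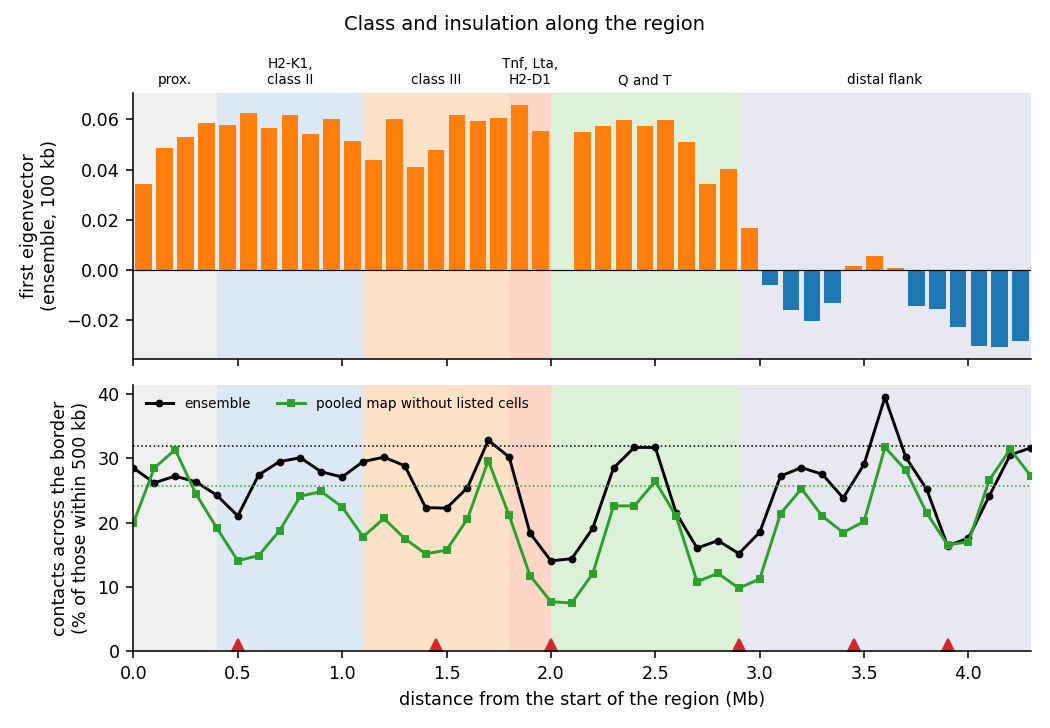
First eigenvector of the balanced ensemble map in 100 kb windows (top, bars, orange positive) and the share of contacts that cross each window border (bottom, %), against distance from the start of the region in Mb. Contacts counted at a border have both ends within 500 kb of it and at least 20 kb apart. Dotted lines give the mean over chromosome 17 (31.9% in the ensemble, 25.8% in the pooled map without listed cells), and triangles mark the 6 ensemble insulation minima. The values are positive up to the end of the Q and T block and mostly negative in the distal flank. Crossing is low at both ends of the Q and T block and at some other points in and beyond it.

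The region was then compared, within each of the 9 Bgl II cells, with the other class 1 bins of chromosome 17, by an exact two-sided permutation test that flips the sign of each cell's difference. There were 11 such tests, adjusted by Benjamini-Hochberg, and with 9 cells the smallest p the test can give is 0.00391. Trans share was tested only for blocks other than the Q and T block. Those blocks still lie in the region picked for trans share, so these tests are not free of that choice. The trans share of the H2-K1 and class II block was 15.3 points above the reference (SD 27.2, n = 9, higher in 8 of 9 cells, adjusted exact p = 0.290). That of the class III stretch was 16.7 points above it (SD 26.4, n = 9, higher in 6 of 9 cells, adjusted exact p = 0.290). Neither passed the threshold of 0.05, but without cell 3 the H2-K1 and class II block did, at 19.1 points (adjusted exact p = 0.0430), and without cell 7, at 100% on 4 of 4 contact ends, its difference was 7.22 points (adjusted exact p = 0.516). Without cell 10 the class III stretch was 9.92 points above the reference (adjusted exact p = 0.516). In the block of Tnf, Lta and H2-D1 the difference was 1.01 points (SD 20.1, n = 9, adjusted exact p = 0.875), on 29 contact ends in all. In the proximal flank it was 13.1 points (SD 37.5, n = 9, higher in 4 of 9 cells, adjusted exact p = 0.681), with cell 6 at 100% on 1 contact end and cell 4 at 100% on 2. Without cell 6 it was 4.88 points. These means weight each cell equally however few its ends. With contacts summed over the cells the differences were 8.49 points for the H2-K1 and class II block, 9.53 for the class III stretch and 4.70 for the proximal flank.

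One of the 11 tests passed. Contacts within chromosome 17 reached over 5 Mb for 36.8% of the region's cis contact ends (SD 10.2, n = 9) against 28.0% in the reference (SD 8.10), a difference of 8.88 points (SD 7.35). It was higher in 9 of 9 cells (exact p = 0.00391, adjusted 0.0430). The count was of contact ends, so a contact inside the region counts at both ends. One over 5 Mb counts at only 1 end there, but in the reference it can count at both. How this counting bears on the difference was not tested. Leaving out 1 cell at a time gave 7.35 to 9.81 points. The adjusted exact p was 0.0859 without any 1 of 8 cells, since fewer cells raise the smallest p the test can give. Without cell 3 it was 0.0430, and the trans share of the H2-K1 and class II block then had the same adjusted exact p. With another test at that value, the adjustment is smaller for both. The difference was largest in the distal flank, most of which had a negative eigenvector at 100 kb. Without that flank, an alternative chosen after the block values were seen, the difference was -3.43 points (SD 12.8, n = 9, lower in 6 of 9 cells, adjusted exact p = 0.596). Against all of chromosome 17 outside the region the difference was -1.34 points and did not pass the threshold. For the Q and T block it was -4.99 points (SD 17.7, n = 9, adjusted exact p = 0.681).

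The distal flank differed from the rest of the region in its partners as well. Of its cis contact ends, 63.3% had partners over 5 Mb away in cell 1, 52.9% in cell 2, 52.6% in cell 3 and 56.2% in cell 4. The share was 43.8% in cell 5, 90.0% in cell 6, 69.2% in cell 7, 42.9% in cell 9 and 38.5% in cell 10. In the rest of the region the same cells had 30.2%, 16.2%, 20.0%, 48.1%, 35.5%, 26.3%, 4.3%, 40.0% and 0%. The last was 0 of 10 contact ends, with a Wilson upper bound of 27.8%. That bound takes ends as independent, though both ends of a contact can be counted. The distal flank was higher in 9 of 9 cells, by 32.1 points on average (SD 22.7), a contrast noticed in the block values and given with no test. In the ensemble the shares were 66.8% and 31.8%, and in the remaining pool 47.7% and 20.1%.

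Trans partners of the complex lay mostly in class 1 bins, and those of the distal flank did so less often. Class 1 held, in the remaining pool, 82.0% of the trans partners of the H2-K1 and class II block, 80.7% for the class III stretch, 80% for the block of Tnf, Lta and H2-D1, and 81.3% for the Q and T block. It held 49.0% for the distal flank (45.0 to 53.0) and 72.9% for the reference (72.2 to 73.7). In the ensemble these shares were 72.7%, 71.8%, 74.7%, 68.7%, 52.9% and 65.4%. Over the 9 cells, the region without the distal flank had 82.4% (SD 19.4) and the distal flank 42.4% (SD 29.5), lower in 8 of 9 cells and again given with no test. For the region as a whole the difference from the reference was 1.42 points (SD 14.2, n = 9, adjusted exact p = 0.859). It was 10.9 points without the distal flank, 8.61 against class 1 bins of all autosomes and 22.2 against all of chromosome 17, which includes class 2 bins, and none of these passed (adjusted exact p = 0.301, 0.222 and 0.0716). For the Q and T block it was 6.12 points (SD 22.9, n = 9, adjusted exact p = 0.681).

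**Figure D4:**
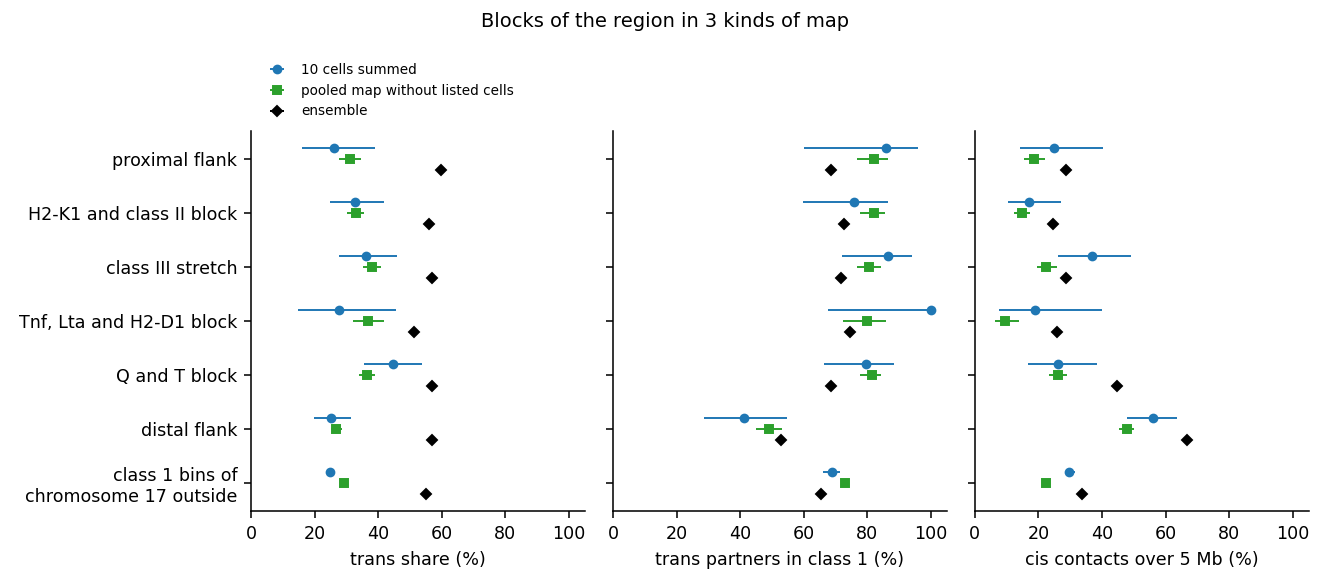
Trans share, share of trans partners in class 1, and share of cis contact ends with partners over 5 Mb away (all %). Values are for the 6 blocks and for the class 1 bins of chromosome 17 outside the region. Maps are the 10 cells summed, the pooled map without the 9 listed cells and the ensemble. Points are shares with 95% Wilson intervals, which for the ensemble are narrower than the symbols. The distal flank has the lowest class 1 share (49.0% in the pooled map) and the highest share over 5 Mb (66.8% in the ensemble).

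Partner chromosomes were compared with those of the rest of chromosome 17. In the ensemble the region met chromosome 11 in 13775 contacts, 1.23 times the number expected (95% exact Poisson interval 1.21 to 1.25), and chromosome 19 in 6198 contacts, 1.21 times (1.18 to 1.24). Chromosomes 18 and 1 were lowest, with 0.882 and 0.887 times. In the remaining pool chromosome 11 had 230 contacts, 1.42 times expected (1.24 to 1.61), chromosome 19 had 137, 1.39 times (1.17 to 1.64), and chromosomes 18 and 1 had 0.687 (0.529 to 0.877) and 0.717 times (0.588 to 0.867). With this reference the same 2 chromosomes led and the same 2 came last in both maps. When the expected number was taken from the class 1 bins of chromosome 17, the order changed: in the ensemble chromosome 19 had 1.11 times, chromosome 7 had 1.09 and chromosome 11 had 1.06. The remaining pool then had chromosome X first with 1.66 times (50 contacts, 1.23 to 2.19), followed by chromosomes 8 (1.25), 19 (1.23) and 7 (1.23). For the Q and T block alone, chromosomes 11 and 19 had 1.00 and 1.08 times in the ensemble.

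**Figure D5:**
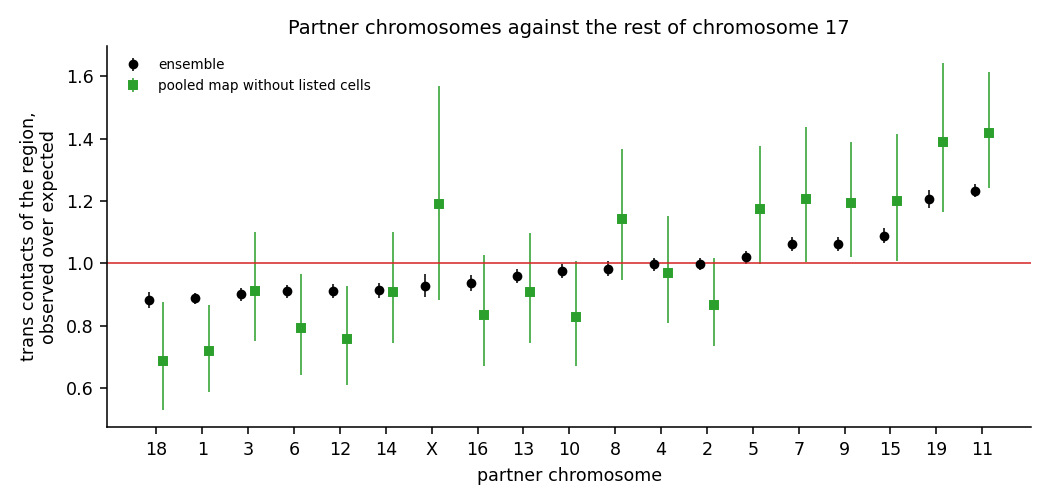
Trans contacts of the region with each partner chromosome, observed over expected from the rest of chromosome 17, in the ensemble and the pooled map without the 9 listed cells. Bars are 95% exact Poisson intervals, chromosomes are ordered by the ensemble value, and the red line marks a ratio of 1. Chromosomes 11 and 19 are highest in both maps (1.23 and 1.21 in the ensemble), and chromosomes 18 and 1 are lowest.

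In 1 Mb bins, the ensemble's leading trans partner among 363 bins with at least 100 contacts was chromosome 19 from 5 to 6 Mb, with 530 contacts against 217 expected, 2.44 times (2.24 to 2.65). Its neighbour from 6 to 7 Mb followed with 371 contacts, 2.33 times. Then came chromosome 10 from 80 to 81 Mb (2.24 times), chromosome 11 from 69 to 70 Mb (2.21 times) and chromosome 8 from 73 to 74 Mb (2.12 times). All 5 were class 1 bins. In the remaining pool the first 2 had 13 and 9 contacts, against 3.50 and 2.01 expected. With class 1 bins of chromosome 17 as the reference this bin had 1.53 times the expected number and came second, after chromosome X from 7 to 8 Mb with 1.65 times (106 contacts, lower bound 1.35). For the Q and T block that bin had 101 contacts, 2.08 times the number expected from chromosome 17 and 1.3 times that from its class 1 bins.

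Within chromosome 17, contacts beyond 5 Mb were more often with class 1 bins in the ensemble. Of 60 bins with at least 100 contacts in the ensemble, the 22 of class 1 had 0.924 to 2.34 times the expected number at their distance. Their median was 1.24. The 38 of class 2 had 0.305 to 0.982 times, with a median of 0.562. The classes were made from this same ensemble map, so its preference for class 1 partners is a description and partly restates them. The leading bins were 24 to 25 Mb (1719 contacts, 2.34 times), 25 to 26 Mb (2.20 times) and 47 to 48 Mb (1.94 times). In the remaining pool 32 bins had at least 10 contacts and were ranked, 19 of class 1 and 13 of class 2. Their medians were 1.23 and 0.864, and the range of class 2 (0.595 to 1.23) lay within that of class 1 (0.592 to 2.16). A minimum of contacts tends to leave out bins with low values, so these medians and ranges are not set against those of the ensemble. In the 9 cells, 42.9% of the region's cis partners beyond 5 Mb were in class 1 (60 of 140), and the difference from the reference was -10.8 points (SD 17.5, n = 9, adjusted exact p = 0.290). Without the distal flank it was 16.7 points above the reference (SD 12.4, n = 8, higher in 8 of 8 cells with such contacts, adjusted exact p = 0.0859). The sign of this difference therefore turned with the flank, and neither value passed the threshold.

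Contacts between the blocks were counted against the number expected at their distance on chromosome 17. In the ensemble the H2-K1 and class II block met the class III stretch 2.05 times the expected number (2271 contacts, 1.97 to 2.14), and 1.70 times after balancing. The remaining pool had 0.840 times (55 contacts, 0.633 to 1.09), an interval that spans 1, and 1.24 times after balancing. The class III stretch met the block of Tnf, Lta and H2-D1 2.92 times (1441 contacts, 2.77 to 3.08), and 1.81 times after balancing. In the remaining pool this pair had 1.25 times (40 contacts, 0.892 to 1.70), and 1.45 times after balancing. The blocks of H2-K1 and of H2-D1 met 1.96 times in the ensemble (293 contacts, 1.74 to 2.19), and 1.29 times after balancing. In the remaining pool they met 1.29 times (10 contacts, 0.620 to 2.38), and 1.82 times after balancing. The Q and T block met the block of Tnf, Lta and H2-D1 1.41 times in the ensemble and 1.31 times after balancing. The remaining pool gave 0.595 times for that pair (0.325 to 0.999), but 1.13 times after balancing, so its side of 1 there depended on the matrix. In the ensemble the Q and T block had lower ratios with the H2-K1 and class II block and the class III stretch. The H2-K1 and class II block met the Q and T block 1.17 times (1.06 to 1.29), and the class III stretch met it 1.08 times (lower bound 1.00). After balancing, which evens the coverage of bins, these became 0.817 and 0.741 times, so their side of 1 depended on the matrix. In the remaining pool they were 0.424 (8 contacts, 0.183 to 0.835) and 0.343 (0.183 to 0.587), and 0.475 and 0.523 after balancing. The Q and T block met the distal flank 0.430 times in the ensemble (712 contacts, 0.399 to 0.463), and 0.472 times after balancing. In the remaining pool they met 0.267 times (25 contacts), and 0.341 times after balancing. All of these values for the distal flank were below expectation.

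Single cells showed the region one contact at a time. The 10 cells had 5 to 19 contacts within the region, and 25 to 94 contact ends in it. Trans contacts numbered 16 in cell 1, 40 in cell 2, 30 in cell 3, 27 in cell 4, 13 in cell 5, 17 in cell 6, 10 in cell 7, 19 in cell 8, 8 in cell 9 and 16 in cell 10. In some cells 1 chromosome took much of them. In cell 1, 9 of 16 were with chromosome 11, where chromosome 11 took 31.8% of the trans contacts of chromosome 17 as a whole, the region included. In cell 4, 13 of 27 were with chromosome 15, against 32.2%. In cell 6, 7 of 17 were with chromosome 6, against 16.4%.

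Trans partner bins were also compared between cells. The region's trans contacts touched 158 bins of 1 Mb. Of these, 13 were touched by 2 cells and 0 by 3 or more, with 8 to 40 trans contacts a cell. The same count was not made for other regions, so whether this sharing was low or high was not tested. One of the 13 was chromosome 15 from 77 to 78 Mb, in cells 4 and 8, which was also among the leading bins of the remaining pool (10 contacts against 1.75 expected, 5.71 times, 2.74 to 10.5) and had 1.69 times the expected number in the ensemble. Between the H2-K1 and class II block and the Q and T block there was 1 contact in cell 1, 1 in cell 3 and 0 in the other 8 cells.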

How the data were processed

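Contact lists of 10 single cells, an ensemble map and a pooled single-cell map were used, with mm9 per the submitters' processing notes. The deposited files hold genomic positions of both ends of each distinct contact, per the file headers, and the authors' values carry no read number, so a repeated ligation counts once. The aligner and the read filters were not stated in these sources. The members, the blocks and the lists were chosen with earlier results of these data known.

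A Bgl II cell held 11156 to 30665 contacts, cell 8 held 12225, and there were 2119836 in the remaining pool and 51834382 in the ensemble. Mitochondrial contacts, 3 in cell 8, were dropped. Region ends numbered 611 in the 10 cells. Maps were balanced in 50 iterations, without bins whose row sum was below 0.2 of the median. Insulation used 50 kb bins and a 500 kb window. Tools were scipy 1.17.1, numpy 2.4.6, Biopython 1.88 and pandas 2.3.3 under Python 3.11.15. The steps were tested on simulated data. Named bins were the 5 highest of each ranking. Cell 8, cut by another enzyme, entered no test. Of 13 promoters sought, 12 were in the RefSeq table. Alternatives changed the reference, the shortest cis distance, the counting of fragment ends, the class call, the balancing, the expected number and the cells included.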

Additional observations from a re-analysis of the deposited data

Results flagged for a closer look

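The trans share of the H2-K1 and class II block was 100% in cell 7, on 4 of 4 contact ends, and the next highest Bgl II cell had 54.5%. This was the 1 value that stood far apart among 14 sets compared between cells, and about 1 set in 20 would hold one by chance.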

How the results depend on the processing

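No paired analysis was possible because the groups of maps share at most 1 replicate number, that of cell 1 and the ensemble. The tests over cells set each cell against its own reference and needed no such number. The values that follow are differences from the reference in points over the 9 Bgl II cells, unless another unit is named, and the cause of a change was not tested where none is given. Of the alternatives run, 146 kept their direction and their side of the threshold or stayed within the error, 9 lost the call, 1 gained it, 16 changed sign and 24 moved by more than the counting error.

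Against all of chromosome 17, the share of cis contact ends over 5 Mb of the region was -1.34, its class 1 share of cis partners 15.7, and the trans share of the distal flank 3.83. That reference includes class 2 bins. Against class 1 bins of all autosomes the first was 0.538 (adjusted exact p = 0.937) and the last 3.06. Without the distal flank, an alternative chosen after seeing the data, the share over 5 Mb was -3.43 and the class 1 share of cis partners 16.7. With cis contacts under 20 kb left out, the share over 5 Mb of the Q and T block was 0.781. Classes without balancing put 44.4% of bins in the other class, and the trans share of the block of Tnf, Lta and H2-D1 became -2.13 and the class 1 share of cis partners of the Q and T block -6.54.

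Leaving out 1 cell at a time gave 7.35 to 9.81 for the region's share over 5 Mb, 7.22 to 19.1 for the trans share of the H2-K1 and class II block, 9.92 to 20.2 for that of the class III stretch, 4.88 to 18.4 for that of the proximal flank, -3.14 to 3.93 for that of the block of Tnf, Lta and H2-D1, -3.34 to 0.305 for that of the distal flank, -0.370 to 4.50 for the region's class 1 share of trans partners and -7.39 to 16.3 for the class 1 share of cis partners of the Q and T block. The sign of the last 4 therefore depended on single cells: cells 2 and 6, cells 5 and 7, cell 7, and cells 1 and 5.

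Counting each fragment end once gave a trans share of the Q and T block of 49.9% in the ensemble and 45.4% in the remaining pool, and leaving out cis contacts under 20 kb gave 59.6% and 43.3%, the latter by construction higher. Balancing the ensemble gave ratios of 0.817 between the H2-K1 and class II block and the Q and T block, 0.741 between the class III stretch and the Q and T block, 1.70 between the H2-K1 and class II block and the class III stretch, and 0.472 between the Q and T block and the distal flank. With class 1 bins of chromosome 17 as reference, the ensemble ratios of partner chromosomes 11, 19, 15, 3, 1 and 18 were 1.06, 1.11, 1.01, 0.967, 0.925 and 0.954, and those of the 5 leading trans bins 1.53, 1.48, 1.49, 1.5 and 1.52. Counting distinct partner ends gave these bins 3.76, 3.84, 3.13, 2.95 and 2.70. Depth limits the cells: the 9 cells had 29 contact ends in the block of Tnf, Lta and H2-D1.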
